A study of Mus musculus with 4 samples.

Results

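The 10 lipogenic enzymes and regulators described here (Acly, Acaca, Acacb, Fasn, Elovl6, Scd1, Me1, Thrsp, Mlxipl and Pnpla3) were chosen by name, and each was read from its brightest probe set that the platform annotation ties to 1 gene symbol. All 10 were found among the 18193 genes with such a probe set. They were compared between the livers of Sox17+/- fetuses (2 arrays) and of wildtype fetuses (2 arrays), both of the C57BL/6 (B6) strain and on day 17 of gestation. The fetuses came from matings of Sox17+/- males with C57BL6 females. The sources used here do not give the kind of Sox17 allele, the sex of the fetuses, or whether a sample was 1 fetus or a pool. Sox17 is a transcription factor of the endoderm, bile duct and gallbladder lineage and of arterial endothelium. Liver was separated from the biliary system before RNA was taken, and each sample was hybridised to 1 single-colour Affymetrix array.

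De novo lipogenesis turns surplus carbohydrate into fat. Mitochondrial citrate is exported to the cytosol, split to acetyl-CoA by ATP citrate lyase, carboxylated to malonyl-CoA by acetyl-CoA carboxylase and built into palmitate by fatty acid synthase, at the cost of NADPH. Elongases and desaturases then lengthen the chain and insert double bonds. In adult liver the genes are switched on together after a carbohydrate meal by the transcription factors SREBP-1c (Srebf1), which answers to insulin, and ChREBP (Mlxipl), which answers to glucose. Fetal liver lives on a steady placental supply of glucose and already makes fat before birth.

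Upstream sequences are shown for 4 starts because these factors act through short motifs close to them. Fasn is the defining enzyme, Me1 and Thrsp are members whose genotypes did not overlap, and the second start of Mlxipl held the only E box found. Acacb did not overlap either, but its start and the second start of Me1 are not shown. Each stretch is the 250 bases before a RefSeq start in GRCm38.p6, read 5′ to 3′ on the gene's strand. Capitals mark a match on either strand to CACGTG (E box, bound by ChREBP with its partner Mlx), TCACNCCAC (sterol response element, bound by SREBP), CCAAT (bound by NF-Y) or GGGCGG (GC box, bound by Sp1).
Fasn, chr11:120824548-120824797, minus strand: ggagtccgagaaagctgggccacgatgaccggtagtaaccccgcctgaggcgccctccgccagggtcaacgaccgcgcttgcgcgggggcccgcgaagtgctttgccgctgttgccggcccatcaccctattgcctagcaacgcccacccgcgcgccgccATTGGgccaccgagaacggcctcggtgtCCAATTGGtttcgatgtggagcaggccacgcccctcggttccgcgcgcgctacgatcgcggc
Me1, first start, chr9:86695915-86696164, minus strand: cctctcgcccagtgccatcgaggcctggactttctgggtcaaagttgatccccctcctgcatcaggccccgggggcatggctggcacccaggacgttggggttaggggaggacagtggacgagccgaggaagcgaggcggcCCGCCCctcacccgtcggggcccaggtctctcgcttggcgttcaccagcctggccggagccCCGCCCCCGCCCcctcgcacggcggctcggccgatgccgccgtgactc
Thrsp, chr7:97417551-97417800, minus strand: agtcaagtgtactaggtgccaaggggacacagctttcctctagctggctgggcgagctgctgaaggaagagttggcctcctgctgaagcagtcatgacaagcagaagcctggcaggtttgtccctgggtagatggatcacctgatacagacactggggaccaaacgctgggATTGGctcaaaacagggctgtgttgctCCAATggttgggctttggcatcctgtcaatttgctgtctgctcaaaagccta
Mlxipl, second start, chr5:135089640-135089889, plus strand: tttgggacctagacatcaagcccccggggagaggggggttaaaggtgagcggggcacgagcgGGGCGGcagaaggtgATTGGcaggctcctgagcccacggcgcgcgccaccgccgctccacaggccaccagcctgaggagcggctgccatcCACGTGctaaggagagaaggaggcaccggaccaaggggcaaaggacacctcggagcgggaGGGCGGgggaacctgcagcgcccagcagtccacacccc

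Of the 10 genes, 9 were matched by symbol in the RefSeq table, with 11 starts, and Scd1 was not among them. The CCAAT box was the most frequent match, in 6 of the 11 starts against 33.8% of all 32851 mouse starts in windows of the same length. In Fasn it began 90, 62 and 59 bases before the start, and in Thrsp 79 and 52 bases before it. The GC box was in 4 of 11 starts, including the first start of Me1 with 3 matches, against 32.7% of all starts. An E box was in 1 member start, 98 bases before the second start of Mlxipl, against 6.02% of all starts. The sterol response element was in 1, the other start of Mlxipl, against 1.05% of all starts. TGACNNNGC, the antioxidant response element bound by NRF2, was in 0 of the 11, against 10.2% of all starts. A match is a description of letters in this window, and the arrays did not measure binding.

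The table held 45101 probe sets, and each array had been scaled to a mean of 500 after the lowest and highest 2% of signals were set aside. Median signals lay between 84.7 and 103. The targeted gene itself, Sox17, had a mean signal in Sox17+/- liver of 0.505 of the wildtype mean on one probe set and 0.518 on the other, with no overlap between genotypes. The sources used here do not say whether these probe sets lie in the changed stretch of the gene. The spiked control bioB was brighter on the arrays numbered 1, at 1022 in Sox17+/- liver and 1191 in wildtype liver, than on those numbered 2, at 421 in Sox17+/- liver and 397 in wildtype liver. The ratio of 3′ to 5′ signal of Actb, a sign of RNA quality, was 1.95 on wildtype array 1 and between 1.20 and 1.43 on the other 3 arrays. The same ratio of Gapdh did not set that array apart, at 0.853 against 0.807 to 0.843 on the other 3 arrays. Defining hepatocyte genes were bright throughout, Alb for example at 42354 and 22768 on the Sox17+/- arrays against 40785 and 23777 on the wildtype arrays. In whole liver, fewer hepatocytes and less of an RNA per hepatocyte cannot be told apart. Signals of different probe sets are not comparable as amounts of RNA, so the genes are not ranked by level below.

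No lipogenic gene passed the test between genotypes. The test was a limma fit on log2(signal + 16) over the brighter 50% of probe sets, 22519 in all, with Benjamini-Hochberg adjustment over all of them. It called 0 probe sets at an adjusted p under 0.05 (0%), while 923 had an unadjusted p under 0.05, and its smallest adjusted p was 0.297. Sox17 itself was not called, with unadjusted limma p of 0.0152 and 0.00698 on its probe sets and an adjusted p of 0.9999 on both. A gene not called is therefore not shown to be unchanged. Among the lipogenic genes, 8 of 10 were bright enough to be tested, 0 were called, 0 had an unadjusted p under 0.05 on the brightest probe set, and all 8 had an adjusted p of 0.9999. Acacb and Thrsp were too dim for the test. Log2 differences below are Sox17+/- minus wildtype on the log2(signal + 16) scale, where folds of dim genes are understated. The p-values measure only the spread between these samples, called biological replicates in the labels. Differences from a fit are given with their standard error and 95% confidence interval from limma, and these intervals are not adjusted for the number of probe sets.

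From citrate to fatty acid, the brightest probe sets of the tested enzymes overlapped between genotypes. Acly, which splits citrate to give cytosolic acetyl-CoA, had signals of 7315 and 8119 on Sox17+/- arrays 1 and 2, against 8027 and 6639 on wildtype arrays 1 and 2. The highest of the 4 was a Sox17+/- array and the lowest a wildtype array. Wildtype array 1 was above Sox17+/- array 1, so the genotypes overlapped. Its means were 7717 ± 569 in Sox17+/- liver and 7333 ± 981 in wildtype liver (SD, n = 2 each). The log2 difference was 0.08 (SE 0.22, interval -0.47 to 0.63), which spans 0.720-fold to 1.55-fold. A second tested Acly probe set overlapped (log2 difference 0.09, SE 0.24, interval -0.51 to 0.69). The third did not, with 1194 and 1402 on the Sox17+/- arrays against 1163 and 1080 on the wildtype arrays (log2 difference 0.20, SE 0.21, interval -0.33 to 0.74).

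Acaca encodes the cytosolic acetyl-CoA carboxylase, the committed and regulated step. It had signals of 618 and 719 on the Sox17+/- arrays, against 766 and 462 on the wildtype arrays, so both Sox17+/- values lay between the wildtype ones. The log2 difference was 0.16 (SE 0.30, interval -0.60 to 0.92), and a second tested probe set also overlapped and gave 0.28 (SE 0.36, interval -0.64 to 1.19). Acacb encodes the carboxylase of the mitochondrial outer membrane, whose malonyl-CoA restrains entry of fatty acids into mitochondria. Its brighter probe set had signals of 9.40 and 26.9 on the Sox17+/- arrays, against 66.6 and 55.2 on the wildtype arrays. Both Sox17+/- arrays were below both wildtype arrays, but all 4 signals were under the medians of their arrays. When dim probe sets were kept in the fit the log2 difference was -1.22 (SE 0.36, interval -2.16 to -0.27, limma adjusted p = 0.934). At such low signals this value depends on the added 16, and the probe set was not shown to be above background. The other Acacb probe set overlapped, at 20.0 and 14.0 on the Sox17+/- arrays against 56.5 and 15.9 on the wildtype arrays.

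Fasn, the multifunctional synthase that makes palmitate, had signals of 1645 and 2357 on the Sox17+/- arrays, against 2042 and 2204 on the wildtype arrays. Here the Sox17+/- arrays were the lowest and the highest of the 4, and the wildtype arrays lay between them. The log2 difference was -0.11 (SE 0.25, interval -0.75 to 0.54), or 0.595-fold to 1.45-fold. Fasn has a single probe set here, so no second reading was available.

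The brightest probe sets of the elongase and the desaturase overlapped as well. Elovl6, which lengthens palmitate to stearate, had signals of 1977 and 1722 on the Sox17+/- arrays, against 2608 and 1375 on the wildtype arrays. Its wildtype arrays were the highest and the lowest of the 4. The log2 difference was -0.04 (SE 0.35, interval -0.92 to 0.85). A dimmer tested probe set of Elovl6 had no overlap, with 680 and 627 on the Sox17+/- arrays against 907 and 695 on the wildtype arrays (log2 difference -0.28, SE 0.23, interval -0.86 to 0.31).

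Scd1, the desaturase that turns stearate into oleate, had signals of 3580 and 3846 on the Sox17+/- arrays, against 4535 and 3048 on the wildtype arrays. The wildtype arrays again lay on either side of the Sox17+/- arrays. The log2 difference was -0.00 (SE 0.26, interval -0.67 to 0.67). On its other tested probe set the signals were 864 and 1001 on the Sox17+/- arrays against 823 and 808 on the wildtype arrays, without overlap (log2 difference 0.19, SE 0.21, interval -0.33 to 0.71).

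**Figure D1:**
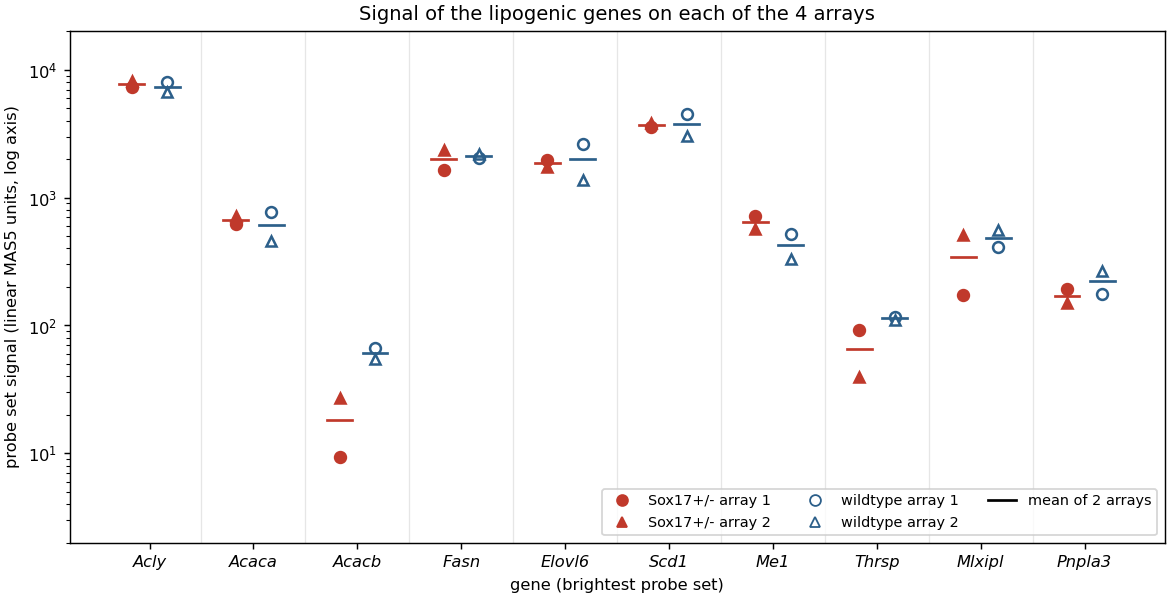
Signal of each gene's brightest probe set (log axis, linear MAS5 units) on the 2 Sox17+/- arrays (filled, left of each pair) and the 2 wildtype arrays (open, right), with circles for array 1, triangles for array 2 and a bar at each mean. Only Me1, Acacb and Thrsp show genotypes that do not overlap, Me1 with Sox17+/- arrays at 718 and 564 above wildtype arrays at 523 and 332.

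Me1 stood higher in Sox17+/- liver on both of its probe sets, without passing the test. It encodes cytosolic malic enzyme, which makes NADPH for fatty acid synthesis and is also a known target of the oxidative stress factor NRF2. Its brighter probe set had signals of 718 and 564 on the Sox17+/- arrays, against 523 and 332 on the wildtype arrays. The dimmer one had 223 and 136 on the Sox17+/- arrays, against 107 and 64.5 on the wildtype arrays. On each probe set both Sox17+/- arrays were above both wildtype arrays, and array 1 was above array 2 within each genotype. The brighter probe set had means of 641 ± 108 in Sox17+/- liver and 427 ± 135 in wildtype liver (SD, n = 2 each). Its log2 difference was 0.59 (SE 0.30, interval -0.16 to 1.34), a 1.51-fold difference, and that of the dimmer probe set was 0.94 (SE 0.34, interval 0.08 to 1.80), with an unadjusted limma p of 0.0373 and an adjusted p of 0.9999. Me1 was the 1 of 8 tested lipogenic genes with both Sox17+/- arrays above both wildtype arrays, an arrangement found in 14.5% of the 11685 tested genes. The reverse arrangement was found in 0 of the 8, against 18.6% of tested genes. With 2 arrays against 2, an exact two-sided permutation test of a single gene cannot give a p below 0.333.

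Of the regulators, Thrsp was lower on the Sox17+/- arrays but too dim for the test, and Mlxipl was scattered there and not called. Thrsp encodes a small nuclear and cytosolic protein, induced by thyroid hormone and carbohydrate, that promotes lipogenesis. Its brightest probe set had signals of 91.8 and 39.8 on the Sox17+/- arrays, against 117 and 111 on the wildtype arrays. Both Sox17+/- arrays were below both wildtype arrays, with Sox17+/- array 2 well below the other 3. The mean of its log2(signal + 16) values, 6.65, lay just under the lowest tested value of 6.66. Without that filter the log2 difference was -0.75 (SE 0.40, interval -1.80 to 0.31, limma adjusted p = 0.9997). Its other 2 probe sets were dimmer, with signals no higher than 24.9 on any array.

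Mlxipl, the glucose-responsive factor ChREBP, had the widest range of the tested genes of the group. Its signals were 174 and 508 on the Sox17+/- arrays, against 409 and 563 on the wildtype arrays. Sox17+/- array 1 was far below the other 3, and Sox17+/- array 2 lay between the wildtype arrays. The log2 difference of -0.65 (SE 0.51, interval -1.95 to 0.64) rested on that array and was 0.08 without it. Pnpla3, a lipid droplet protein of the patatin family that is itself induced by SREBP-1c and ChREBP, had signals of 192 and 150 on the Sox17+/- arrays, against 177 and 266 on the wildtype arrays. These overlapped, with a log2 difference of -0.33 (SE 0.28, interval -1.03 to 0.38).

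**Figure D2:**
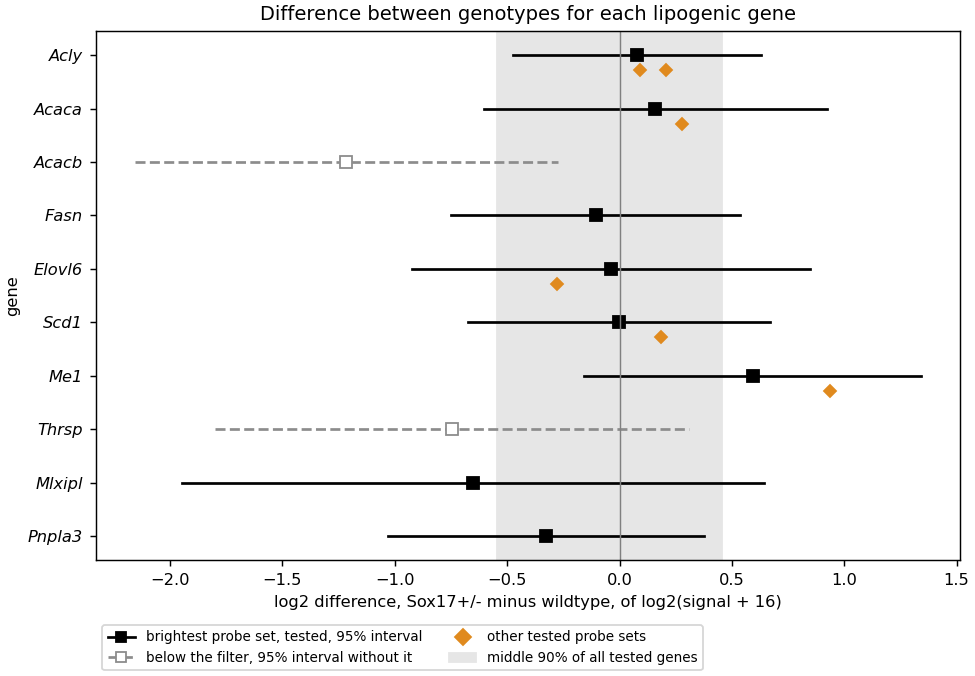
Log2 difference (Sox17+/- minus wildtype, x axis) for each gene (y axis), with squares for the brightest probe set, bars for the 95% confidence interval, dashed where the probe set was below the filter and the fit without a filter is shown, diamonds for other tested probe sets and a grey band for the middle 90% of all tested genes. The intervals of all 8 tested genes cross 0, and the squares of Fasn, Acly, Acaca, Elovl6 and Scd1 lie between -0.11 and 0.16.

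Arrays of one genotype also differed from each other in these genes. For all 8 tested lipogenic genes the larger of the 2 within-genotype gaps exceeded the log2 difference between genotypes, as it did for 78.8% of all tested genes. This comparison favours the gap, because the larger of 2 gaps between single arrays is set against a difference of means. The wildtype arrays differed by 0.92 for Elovl6, 0.71 for Acaca, 0.63 for Me1 and 0.57 for Scd1 on the log2 scale, where the median gap over all tested genes was 0.25. The wildtype gap was above that median in 7 of the 8 genes, all but Fasn. The corresponding gap between Sox17+/- arrays was above its gene median of 0.23 in 4 of the 8, led by Mlxipl at 1.46. The median of the 8 log2 differences was -0.02, the same as over all tested genes (-0.02), and the median of their sizes was 0.13 against 0.17 over all tested genes.

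Replicate numbers are shared by the genotypes in the labels, and the 5 enzymes of the synthesis path differed in opposite directions in the same-numbered comparisons. Array names in the labels also carry a code shared by the arrays of one number, whose meaning is not stated, so these comparisons are within a possible batch. Between the arrays numbered 1, Acly, Acaca, Fasn, Elovl6 and Scd1 were all lower in Sox17+/- liver, by -0.40 to -0.13 on the log2 scale. Between the arrays numbered 2 all 5 were higher in Sox17+/- liver, by 0.10 to 0.62. This order was found in 22% of all tested genes. These 5 were grouped after their values were seen, and of the 5 other tested probe sets of the same genes only 1 had it. Me1 was higher in Sox17+/- liver in both comparisons (0.44 and 0.74), and Pnpla3 was higher on the arrays numbered 1 and lower on those numbered 2 (0.11 and -0.76). Mlxipl (-1.16 and -0.14), Thrsp (-0.31 and -1.18) and Acacb (-1.70 and -0.73) were lower in both. The part of wildtype array 1, with its Actb ratio of 1.95 but a Gapdh ratio near that of the other arrays, in these differences was not tested.

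**Figure D3:**
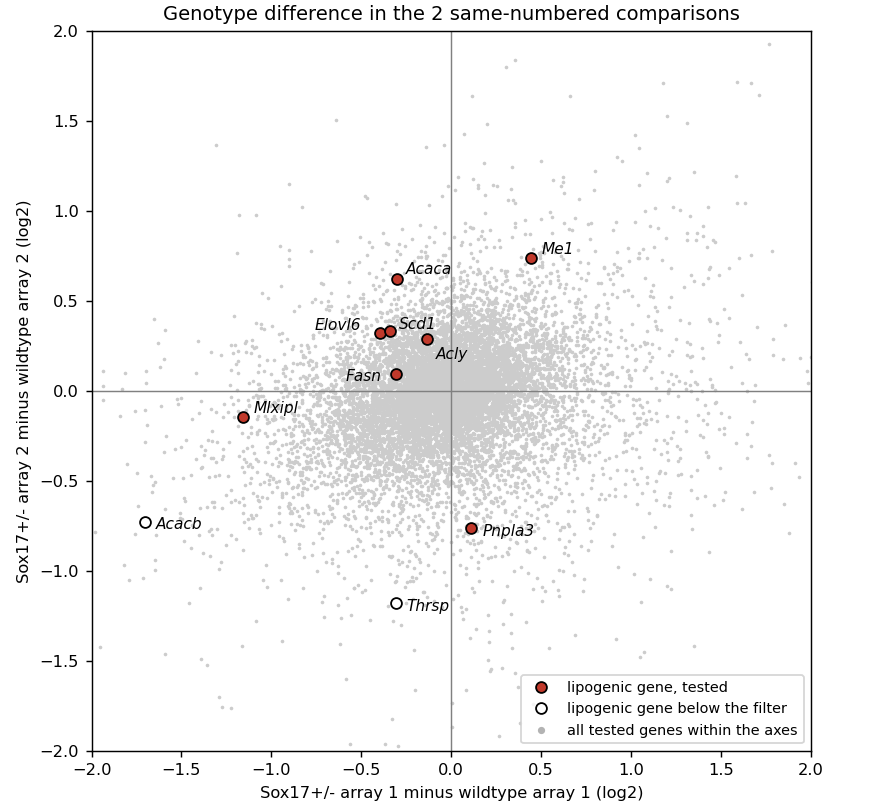
Log2 difference between the arrays numbered 1 (x axis) against that between the arrays numbered 2 (y axis), Sox17+/- minus wildtype, for the 10 lipogenic genes (large circles, open where below the filter) and all tested genes within the axes (grey, 82 lie outside). Acly, Acaca, Fasn, Elovl6 and Scd1 sit at the upper left and Me1 at the upper right.

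The wider pathway was read from 6 lists of regulators, substrate supply, chain modification, glycerolipid assembly, lipid droplets, and carboxylase partners with fatty acid fate. Outside the 10 genes above they held 98 genes, 92 of them named on the array and 80 tested. The limma test called 0 of the 80, while 1 higher and 3 lower had an unadjusted p under 0.05. Both Sox17+/- arrays were above both wildtype arrays in 12 of the 80 (15%) and below them in 16 (20%), close to the 14.5% and 18.6% of all tested genes. Their median log2 difference was -0.06. The genes named below are, for each list, up to 3 with the largest log2 difference among those whose genotypes did not overlap, and none passed the test.

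Of 18 tested regulators, 1 was higher and 3 were lower without overlap. Srebf1, the insulin-responsive activator of Fasn, Acaca and Scd1, had signals of 1392 and 1972 on the Sox17+/- arrays, against 2288 and 2623 on the wildtype arrays (log2 difference -0.56, SE 0.26, interval -1.21 to 0.09). Mlx, the obligate partner of ChREBP, had 446 and 488 on the Sox17+/- arrays, against 680 and 580 on the wildtype arrays (log2 difference -0.42, SE 0.21, interval -0.95 to 0.12). Insig2, which holds SREBP in the endoplasmic reticulum, had 611 and 646 in Sox17+/- liver against 543 and 468 in wildtype liver (log2 difference 0.31, SE 0.21, interval -0.22 to 0.83).

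Substrate supply held the lowest value among the tested genes of all the lists. Of 12 tested genes 2 were higher and 2 lower without overlap. Gckr, the regulatory protein that holds glucokinase in the nucleus, had signals of 678 and 674 on the Sox17+/- arrays, against 2152 and 1185 on the wildtype arrays (log2 difference -1.22, SE 0.33, interval -2.05 to -0.39). Idh1, a cytosolic source of NADPH, had 5886 and 5694 on the Sox17+/- arrays, against 10735 and 7042 on the wildtype arrays (log2 difference -0.59, SE 0.27, interval -1.27 to 0.10). Pklr, the liver pyruvate kinase and a classic ChREBP target, had 3769 and 4974 on the Sox17+/- arrays, against 2807 and 3133 on the wildtype arrays (log2 difference 0.54, SE 0.24, interval -0.05 to 1.14). Pgd, an NADPH source of the pentose phosphate pathway, overlapped at 3031 and 2917 on the Sox17+/- arrays against 3403 and 2834 on the wildtype arrays.

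Chain modification had 5 of 17 tested genes higher and 4 lower without overlap. Fads2, the desaturase that opens polyunsaturated fatty acid synthesis, had 2082 and 2355 on the Sox17+/- arrays, against 865 and 1927 on the wildtype arrays (log2 difference 0.77, SE 0.41, interval -0.26 to 1.80). Elovl2, an elongase of long polyunsaturated chains, had 2136 and 2489 in Sox17+/- liver against 3703 and 3271 in wildtype liver (log2 difference -0.59, SE 0.21, interval -1.13 to -0.05), and Fads3 had 221 and 230.1 in Sox17+/- liver against 349 and 294 in wildtype liver (log2 difference -0.48, SE 0.21, interval -1.01 to 0.05). Scd2, the desaturase prominent in fetal liver, overlapped at 19758 and 17917 on the Sox17+/- arrays against 22685 and 16704 on the wildtype arrays.

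Glycerolipid assembly had 1 of 15 tested genes higher and 4 lower without overlap, with a median log2 difference of -0.13. Agpat2, which makes phosphatidic acid, had 1328 and 1031 on the Sox17+/- arrays, against 2595 and 1718 on the wildtype arrays (log2 difference -0.84, SE 0.29, interval -1.58 to -0.11). Chpt1, a choline phosphotransferase, had 192 and 178 in Sox17+/- liver against 272 and 224 in wildtype liver (log2 difference -0.39, SE 0.21, interval -0.93 to 0.15). Lpin2, a phosphatidate phosphatase, had 3207 and 2813 in Sox17+/- liver against 2731 and 2056 in wildtype liver (log2 difference 0.34, SE 0.24, interval -0.27 to 0.95).

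Lipid droplet and lipolysis genes included the 2 highest values among the tested genes of all the lists, with 3 of 14 tested genes higher and 1 lower without overlap. Hilpda, a lipid droplet protein induced by hypoxia that inhibits the lipase Pnpla2, had 1616 and 746 on the Sox17+/- arrays, against 689 and 319 on the wildtype arrays (log2 difference 1.20, SE 0.51, interval -0.10 to 2.50). Fabp4, the fatty acid carrier of adipocytes, macrophages and capillary endothelium, had 7349 and 4173 on the Sox17+/- arrays, against 3197 and 1847 on the wildtype arrays (log2 difference 1.18, SE 0.40, interval 0.17 to 2.20). Plin2, the main droplet coat protein of hepatocytes, overlapped at 6537 and 5812 on the Sox17+/- arrays against 5358 and 5878 on the wildtype arrays. Cideb, which serves lipidation of very low density lipoprotein, had 2212 and 2001 in Sox17+/- liver against 3317 and 2261 in wildtype liver (log2 difference -0.38, SE 0.26, interval -1.04 to 0.29). Of 4 tested genes in the list of carboxylase partners and fatty acid fate, 2 were lower without overlap. Mlycd, which breaks malonyl-CoA down, had 279 and 341 in Sox17+/- liver against 473 and 417 in wildtype liver (log2 difference -0.50, SE 0.22, interval -1.06 to 0.05), and Oxsm, of mitochondrial fatty acid synthesis, had 403 and 541 in Sox17+/- liver against 595 and 552 in wildtype liver (log2 difference -0.29, SE 0.24, interval -0.88 to 0.31).

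**Figure D4:**
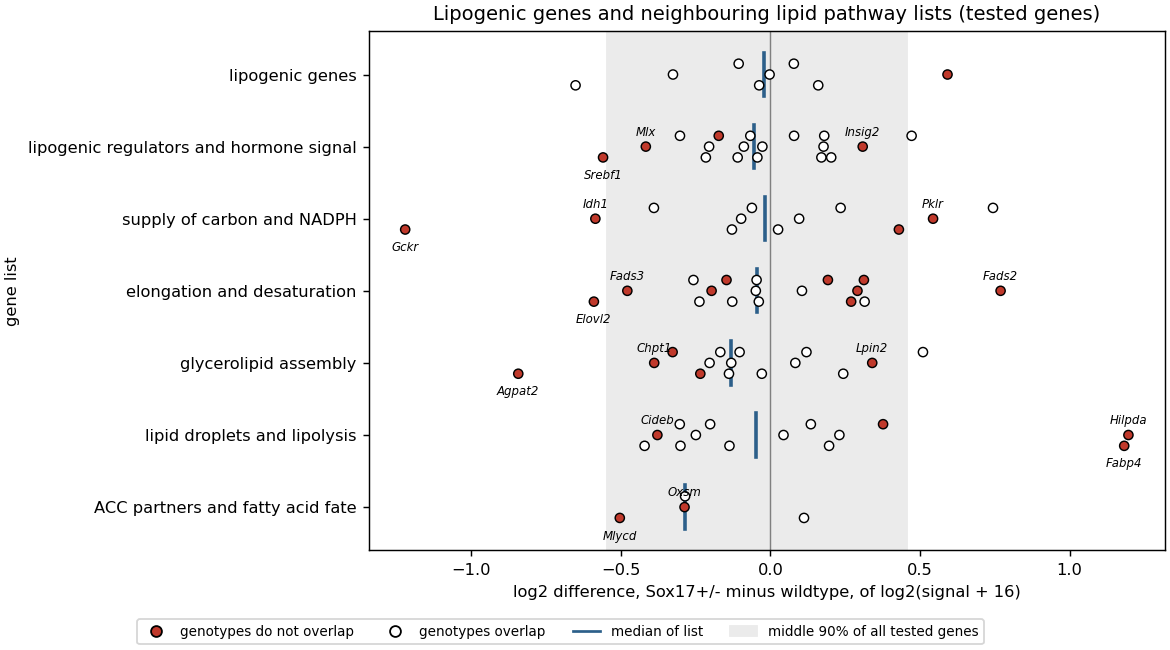
Log2 difference (Sox17+/- minus wildtype, x axis) of the tested genes in the lipogenic group and 6 wider lists (y axis), red where the genotypes do not overlap, with a blue bar at each list's median and a grey band for the middle 90% of all tested genes. List medians lie between -0.29 and -0.02, Gckr is at the low end with -1.22 and Hilpda and Fabp4 are at the high end with 1.20 and 1.18.

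Markers of other cells were read beside these values. Summed over the 7 adipocyte genes named on the array, signal was 7655 and 4406 on the Sox17+/- arrays, against 3397 and 2288 on the wildtype arrays, most of it Fabp4. The defining adipocyte gene Adipoq was dim on every array, at 9.25 and 1.12 on the Sox17+/- arrays against 2.81 and 33.0 on the wildtype arrays. Cidec, a lipid droplet fusion protein, was also too dim for the test but did not overlap, at 50.01 and 45.0 on the Sox17+/- arrays against 11.1 and 5.56 on the wildtype arrays. Ucp1, below the filter as well, went the other way without overlap, at 11.7 and 7.25 on the Sox17+/- arrays against 19.0 and 18.2 on the wildtype arrays. Lep and Retn were also below the filter, and both overlapped. Lipe was tested and overlapped (log2 difference -0.20, SE 0.37, interval -1.13 to 0.73). Non-overlapping counts in the marker lists below stand beside 14.5% of all tested genes higher and 18.6% lower, and limma called none of these markers. Endothelial genes had 3 of 7 members higher and 1 lower without overlap, with sums of 7226 and 7093 in Sox17+/- liver against 7206 and 5554 in wildtype liver. Macrophage genes had 1 of 6 higher and 3 lower, with sums of 14292 and 12495 in Sox17+/- liver against 14148 and 11345 in wildtype liver. These sums hide opposite differences. Marco was the higher gene (log2 difference 1.03, SE 0.30, interval 0.28 to 1.78). Of the 3 lower genes Vsig4 differed most (log2 difference -1.68, SE 0.43, interval -2.77 to -0.59). The part of endothelial cells and macrophages in the Fabp4 difference was not tested. Hepatocyte genes, 8 of 8 overlapping, summed to 237651 and 138354 on the Sox17+/- arrays against 243339 and 145920 on the wildtype arrays. In either genotype the sum was larger on the array numbered 1. The highest signal of any probe set was larger there too, at 56860 and 32468 on Sox17+/- arrays 1 and 2. On wildtype arrays 1 and 2 it was 56988 and 34407.

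Markers of bile duct, pancreas, intestine and red blood cells were read in the same way. Of 6 named biliary genes 4 were tested and 1 was higher without overlap, with sums of 767 and 502 in Sox17+/- liver against 499 and 540 in wildtype liver. Of 6 named pancreatic genes only Cela1 was tested, and it overlapped. The list sums were 1553 and 1229 in Sox17+/- liver against 1312 and 1302 in wildtype liver. Most of each sum was Cela1, at 1405 and 1028 on the Sox17+/- arrays against 1142 and 994 on the wildtype arrays. Of 5 intestinal genes 2 were tested, both lower without overlap, with sums of 487 and 403 in Sox17+/- liver against 581 and 567 in wildtype liver. Erythroid genes had 1 of 5 tested members lower without overlap, with sums of 63648 and 56101 in Sox17+/- liver against 63015 and 62601 in wildtype liver. The part of these cells in the lipogenic values was not tested.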

How the data were processed

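Total RNA of 4 fetal liver samples was hybridised to single-colour Affymetrix arrays. The authors deposited 1 intensity per probe set and array on a linear scale. The submitters' processing notes name MAS5, without a version. MAS5 summarises each array alone, so dim signals are noisy, and scaling removes differences in total RNA. Of 45101 probe sets, 64 controls were left out, and 34945 of the rest had 1 symbol in the platform annotation, 932 several and 9160 none listed.

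Signals were taken as log2(signal + 16). The brighter 50% of probe sets by their mean on that scale were fitted with limma 3.58.1 in R 4.3.3 (genotype as the only term, lmFit and eBayes, two-sided, residual degrees of freedom 2, prior 3.24), with Benjamini-Hochberg adjustment over all 22519 and a threshold of 0.05. The code was tested on simulated data. The number of arrays limits precision. The genes and lists were chosen with earlier results of these data known. Genes named beyond the 10 were Sox17, the up to 3 non-overlapping genes of largest difference per pathway list, the 3 nearest profiles to the widest-ranging tested gene, and Pgd, Scd2, Plin2, Alb and markers, added after values were seen. Alternatives are given in the closing section.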

Additional observations from a re-analysis of the deposited data

How the results depend on the processing

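The number of lipogenic genes called was 0 under every one of the 14 alternatives tried, as was the number of wider pathway genes called. Over all probe sets the limma count was 5 with median centring and 3 with a trended and robust prior, and 0 otherwise. With the replicate block it was also 0, and Me1 had a limma adjusted p of 0.644. Deviations of same-numbered arrays correlated at r = 0.383 over 22519 probe sets, but with 2 numbers, and a shared code in the array names of no stated meaning, the numbers were not taken to pair the samples. Non-overlapping lipogenic genes numbered 3 of 10 with no filter on dim probe sets and 3 of 8 with probe sets averaged per gene. They numbered 2 of 9 with the brighter 50% taken by mean linear signal, a setting chosen after seeing the data. With 1 array left out they numbered 3 to 7 of 8, and wider pathway genes 50 to 60 of 80. Fewer arrays overlap less often by construction. The share over all tested genes under these settings is not given here, so these counts are not compared with it. The median log2 difference of lipogenic genes ran from -0.13 to 0.25 over these omissions, the highest without wildtype array 1.

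Of 110 single-gene values under alternatives, 99 kept their direction and 11 turned. Many of the 110 could not turn, because the setting left the log2 difference itself unchanged. This was so for the changed filters, the replicate block and the trended and robust prior. It was also so for the mean over probe sets in genes with 1 probe set. The count of 99 is therefore not a measure of stability. Where every array was kept, no limma adjusted p was below 0.644. Leaving out 1 array gave ranges of -0.36 to 0.15 for Fasn, -0.20 to 0.51 for Acaca, -0.059 to 0.21 for Acly, -0.29 to 0.28 for Scd1, -0.50 to 0.42 for Elovl6 and -1.38 to 0.079 for Mlxipl. Scd1 was also above 0 with median centring (0.044) and with the mean over its probe sets (0.092), and Elovl6 with median centring (0.0090). Me1 ran from 0.28 to 0.91 when 1 array was left out and stayed above 0 under all 14, and Pnpla3 stayed below 0 under the 13 that gave it a value. Both the 14 and the 13 include settings that could not change the log2 difference. The cause of these turns was not tested.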

Other observations

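Among all tested genes outside the lipogenic group, the 3 whose array-centred log2 profiles lay nearest to that of Mlxipl were Ache, Rgl2 and Ppl, at root mean square differences of 0.03, 0.07 and 0.09 over the 4 arrays. Ache, acetylcholinesterase, had signals of 159 and 456 on the Sox17+/- arrays against 354 and 509 on the wildtype arrays. Rgl2 had 251 and 636 in Sox17+/- liver against 516 and 711 in wildtype liver, and Ppl had 34.5 and 130 in Sox17+/- liver against 90.8 and 157 in wildtype liver. All 3 shared the low value on Sox17+/- array 1. With 4 arrays many genes share any one order, so the likeness is given as a description.

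Dim probe sets of lipogenic genes went in various directions. Of 23 probe sets of the 10 genes, 14 were tested. A dim Acly probe set had 78.2 and 77.2 on the Sox17+/- arrays against 59.1 and 15.7 on the wildtype arrays, while another had 3.32 and 10.8 in Sox17+/- liver against 45.2 and 34.9 in wildtype liver. The bright Acly probe sets had log2 differences between 0.08 and 0.20.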
